A study of Mus musculus with 16 samples.

Results

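The genes described here are 3 RNA-binding genes of the mouse, Msi2, Rbm47 and Msi1, examined for CpG methylation across their gene bodies in metaphase II (MII) oocytes. They are 3 of 21938 protein-coding genes in the annotation. Msi2 and Rbm47 were chosen by the gene body methylation values themselves, because the oocytes grown in vitro and those from superovulated prepubertal females had far lower methylation there than the oocytes of adults. Msi1 was taken as the paralogue of Msi2, whatever its values. The gene bodies were cut into 10-kb bins, of which 56 of 272564 in the genome are counted to a member, with most of each bin inside it: 38 in Msi2, 15 in Rbm47 and 3 in Msi1.

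Methylation was measured in 16 libraries, each made from 1 pool of MII oocytes of C57BL/6J X CBA/Ca F1 females. The 4 IFC pools came from in vitro follicle culture and carry a label age of 23 days, which counts the time in culture. The 5 SO pools came from superovulated prepubertal females of 23 days, the 4 SOA pools from superovulated adults of 10 weeks, and the 3 IV pools from adults of 10 weeks that ovulated naturally. Superovulated females received equine (eCG) and then human (hCG) chorionic gonadotropin, at a lower dose in the prepubertal females, so that dose and age cannot be told apart in SO vs SOA. The cultured follicles were isolated from prepubertal females younger than the label age and grown with recombinant follicle-stimulating hormone. They were matured with recombinant hCG and epidermal growth factor. Culture, with these additions, and age likewise cannot be told apart in IFC vs SOA. Libraries were prepared by post-bisulphite adapter tagging (PBAT), in which a cytosine still read as C after bisulphite treatment is called methylated.

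Musashi 2 (Msi2) and Musashi 1 (Msi1) are RNA-binding proteins that recognise short UAG-containing sites and control the translation and stability of their target mRNAs, and they are best known for keeping stem and progenitor cells from differentiating. RBM47 is an RNA-binding protein with RNA recognition motifs that serves as a cofactor of the cytidine deaminase APOBEC1 in C-to-U editing of mRNA and also takes part in splicing and mRNA stability. In growing oocytes DNA methylation is laid down late, during follicle growth, mainly over the bodies of genes that are being transcribed, while most CpG-rich promoters and untranscribed stretches stay unmethylated. Transcripts were not analysed here.

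Sequences of start regions and of the CpG-richest window of each gene body are shown to give the sequence context of the CpGs measured, of which they hold a small part. Both Rbm47 sequences were low in methylation and do not stand for the level of its gene body. All are on the GRCm38 build, written 5′ to 3′ on the strand of the gene (minus for both genes), with every CpG dinucleotide in capitals. In Msi2 they are the 300 bases before the outermost annotated start (chr11:88718514-88718813), which hold 32 CpGs and also overlap an exon of the lincRNA C030037D09Rik, and the 200-bp window of the gene body richest in CpGs (chr11:88348801-88349000), which holds 18 CpGs and has 192 of its bases in a coding exon near the 3′ end. In Rbm47 they are the 250 bases before an internal RefSeq start (chr5:66151955-66152204), with 7 CpGs, and the gene body window richest in CpGs (chr5:66069701-66069900), which holds 16 CpGs, is intronic for Rbm47 and lies in an exon of Gm43775, a separate transcript model.
Msi2 before the start: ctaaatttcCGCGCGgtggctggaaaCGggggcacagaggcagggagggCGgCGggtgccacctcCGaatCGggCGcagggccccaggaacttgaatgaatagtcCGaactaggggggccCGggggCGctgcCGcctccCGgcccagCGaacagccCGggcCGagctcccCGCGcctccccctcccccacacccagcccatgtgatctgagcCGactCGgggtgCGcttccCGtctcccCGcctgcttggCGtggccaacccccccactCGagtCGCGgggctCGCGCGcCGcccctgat
Msi2 coding exon window: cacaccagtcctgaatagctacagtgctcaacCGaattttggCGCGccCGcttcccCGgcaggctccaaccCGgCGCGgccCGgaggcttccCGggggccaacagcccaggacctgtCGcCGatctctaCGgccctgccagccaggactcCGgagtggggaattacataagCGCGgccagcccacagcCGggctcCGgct
Rbm47 before an internal start: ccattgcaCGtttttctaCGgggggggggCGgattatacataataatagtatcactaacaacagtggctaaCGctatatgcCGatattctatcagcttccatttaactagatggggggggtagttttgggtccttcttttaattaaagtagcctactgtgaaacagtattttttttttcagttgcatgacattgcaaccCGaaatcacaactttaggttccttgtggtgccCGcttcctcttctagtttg
Rbm47 intronic window: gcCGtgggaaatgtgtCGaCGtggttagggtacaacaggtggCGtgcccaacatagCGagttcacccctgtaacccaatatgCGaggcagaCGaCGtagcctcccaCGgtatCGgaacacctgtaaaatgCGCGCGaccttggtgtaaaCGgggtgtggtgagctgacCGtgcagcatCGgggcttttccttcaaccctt

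The Msi2 start was unmethylated where it was covered, with 0.680% of 147 calls methylated over the 9 libraries with calls. SO gave 1 of these calls and IV 83. The coding exon window of Msi2 was methylated in 94.7% of 38 calls in SOA, 78.9% of 19 in IV, 86.0% of 57 in SO and 26.3% of 19 in IFC. The 95% Wilson interval was 82.7 to 98.5% for SOA, 56.7 to 91.5% for IV, 74.7 to 92.7% for SO and 11.8 to 48.8% for IFC. These calls came from 2 or 3 libraries a group, and of the IFC libraries IFC3 had 2 of 2 calls methylated, IFC2 1 of 7 and IFC4 2 of 10. Intervals here treat every call as separate, although calls of neighbouring CpGs can come from the same molecule and reads carried no molecular identifiers. They also leave out the spread between pools, so they can be too narrow. The Rbm47 intronic window was unmethylated in IFC (0 of 36 calls, upper bound 9.64%) and SO (0 of 62, upper bound 5.83%), and low in SOA (8.33% of 48) and IV (13.5% of 52). The bases before the internal Rbm47 start had 22 calls in all, 18 of them in SO, of which 11.1% were methylated. A window as rich in CpGs as the RefSeq promoter of Msi2, with 39 CpGs in 300 bases, was found at 4.45% of 32851 RefSeq promoters, whereas the internal Rbm47 promoter, with 10, was matched or exceeded by 43.5%.

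Depth and library quality set the precision. The libraries held 5218053 to 23065411 CpG calls, and between 65.5 and 91.5% of covered positions carried 1 call. All IFC libraries, SO1, SO2 and SOA1 to SOA3 were the shallower ones, below 12000000 calls, and all IV libraries were deeper, so depth differs with the groups. Per library, the Msi2 gene body was covered by 1202 to 5418 calls, Rbm47 by 482 to 2189 and Msi1 by 75 to 717, which gave 95% Wilson intervals reaching, on average of both sides, 1.19 to 2.64, 1.76 to 4.43 and 1.016 to 4.87 points. As a check of the cell type, the start of H19, a locus methylated on the paternal and not the maternal allele, was methylated in 0 to 5.26% of calls, and the starts of the maternally methylated Peg3 and Kcnq1ot1 in 85.0 to 100% and 91.7 to 100%. The fewest calls in a library were 4 at H19, 12 at Peg3 and 1 at Kcnq1ot1. The annotated starts of Mest and Plagl1, also maternally methylated loci, were not high, at 28.7 and 1.79% over all libraries. The windows, 500 bp either side of an annotated start, need not cover the imprinted regions. The paper reports high methylation in every library at the maternal imprinted regions it assessed. It describes IV1 as the most variable library there, tending to lower values, and suspects that somatic DNA slightly contaminated it. At Gnas it found IV lower than the other groups, which seemed to it to come from IV1. The labels' lysis text names a blastocyst, whereas every other label names oocytes. Of the naturally ovulated libraries, IV1 stood apart, with 16.3% methylation in bins that were below 20% in the other groups, against 8.02 to 8.76% in IV2 and IV3 and 7.01 to 11.5% in the remaining libraries.

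The Msi2 gene (ENSMUSG00000069769.13) spans 379 kb of chromosome 11 (chr11:88339382-88718513, minus strand) with 7 annotated transcripts and 5089 CpGs, or 13.4 per kb. Its gene body methylation was 50.7, 44.9, 48.0 and 41.3% in IFC1 to IFC4, and 48.7, 49.9, 60.3, 41.8 and 46.6% in SO1 to SO5. In the adult groups it was 79.8, 72.1, 71.5 and 72% in SOA1 to SOA4, and 73.3, 72.6 and 73.5% in IV1 to IV3. The 9 libraries of IFC and SO thus all lay below the 7 libraries of SOA and IV, with SO3 the highest of the first and SOA3 the lowest of the second. The share of all gene bodies that separate in this way was not counted. Group means were 46.2% ± 4.06 in IFC (SD, n = 4) and 49.5% ± 6.80 in SO (n = 5), against 73.8% ± 3.97 in SOA (n = 4) and 73.1% ± 0.447 in IV (n = 3). The difference was 27.6 points (SE 2.84) between IFC and SOA, 24.4 (SE 3.63) between SO and SOA, 26.9 (SE 2.04) between IFC and IV and 23.7 (SE 3.05) between SO and IV. These 4 contrasts chose the gene and share their libraries, so they are given as a description, without a test. A pool at 50% in which every oocyte is partly methylated and one in which some oocytes are methylated and others are not cannot be told apart.

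Rbm47 (ENSMUSG00000070780.11) spans 157 kb of chromosome 5 (chr5:66016549-66173118, minus strand) with 14 annotated transcripts and 1998 CpGs, or 12.8 per kb. Methylation of the gene body was 45.4, 34.0, 40.0 and 44.5% in IFC1 to IFC4, and 53.7, 45.2, 64.4, 36.0 and 30.9% in SO1 to SO5. The adult pools had 84.1, 76.8, 70.5 and 77.1% in SOA1 to SOA4, and 76.7, 75.6 and 75.6% in IV1 to IV3. Again every IFC and SO library lay below every SOA and IV library, a separation whose share among all gene bodies was not counted. The SO pools were spread more widely than those of any other group, with SO3 highest and SO5 lowest. Means were 41.0% ± 5.22 in IFC (SD, n = 4) and 46.1% ± 13.5 in SO (n = 5), against 77.2% ± 5.56 in SOA (n = 4) and 76.0% ± 0.653 in IV (n = 3). IFC was 36.2 points (SE 3.81) below SOA and 35.0 (SE 2.64) below IV, and SO was 31.1 (SE 6.64) below SOA and 29.9 (SE 6.04) below IV, again as a description of the values that chose the gene.

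Msi1 (ENSMUSG00000054256.11), 26.1 kb of chromosome 5 (chr5:115429599-115455698, plus strand) with 658 CpGs or 25.2 per kb, was unmethylated in every group. Its libraries read 3.29, 3.11, 2.44 and 4.72% in IFC1 to IFC4, 5.37, 1.28, 3.60, 6.16 and 2.37% in SO1 to SO5, 2.34, 3.92, 4.00 and 2.23% in SOA1 to SOA4, and 10.2, 2.38 and 1.75% in IV1 to IV3. All groups overlapped, and the highest value was that of IV1, the library that was high in unmethylated bins throughout the genome. Means were 3.39% ± 0.958 in IFC (n = 4) and 3.76% ± 2.03 in SO (n = 5), against 3.12% ± 0.969 in SOA (n = 4) and 4.76% ± 4.68 in IV (n = 3).

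**Figure D1:**
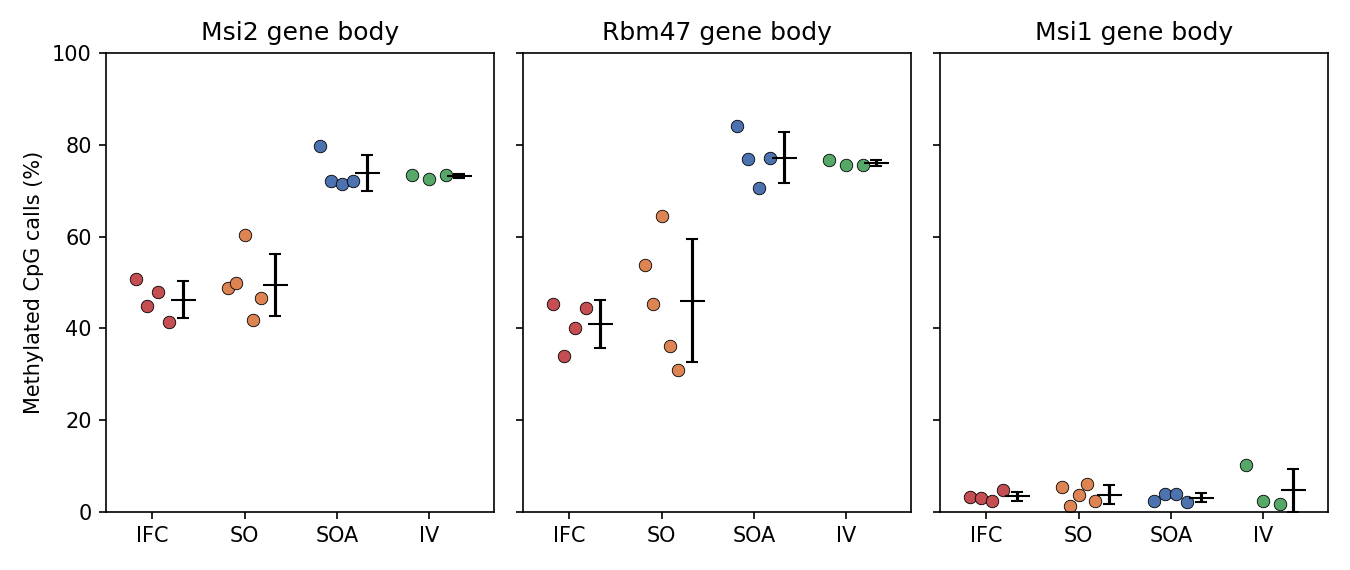
Percent of methylated CpG calls over the gene bodies of Msi2, Rbm47 and Msi1, 1 point per library, with the group mean and SD beside the points. For Msi2 and Rbm47 the 9 IFC and SO libraries lie at 30.9 to 64.4% and the 7 SOA and IV libraries at 70.5 to 84.1%, while Msi1 is at 1.28 to 10.2% throughout.

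The contrasts within each side of that choice compare culture with superovulation at the prepubertal age (IFC vs SO) and superovulation with natural ovulation in adults (SOA vs IV). The choice took genes with IFC and SO both low and SOA and IV both high. It thus favours small differences within each side, and a high p for Msi2 or Rbm47 may in part reflect it. IFC was 3.23 points below SO at Msi2 (SE 3.66, two-sided exact permutation test, n = 4 and 5, p = 0.484) and 5.07 points below SO at Rbm47 (SE 6.57, exact p = 0.5). SOA was 0.703 points above IV at Msi2 (SE 2, exact permutation p = 1.00) and 1.19 points above IV at Rbm47 (SE 2.81, exact p = 0.6). Without SO3 the IFC vs SO differences were -0.526 points at Msi2 and -0.476 at Rbm47. For SOA vs IV, leaving out SOA1 turned both directions, to 1.27 and 1.14 points below IV. None of these differences could be told from the spread between pools, and with the group sizes at hand the smallest p that could be reached was 0.00794 for IFC vs SO and 0.0286 for SOA vs IV. For Msi1, which was not chosen by its values, IFC was 0.367 points below SO (exact permutation p = 0.770), SO 0.633 above SOA (exact p = 0.571), IFC 0.266 above SOA (exact p = 0.629) and SOA 1.64 below IV (exact p = 0.800). Without IV1, SOA was 1.06 points above IV at Msi1. Over all 12 exact tests of gene bodies and flanks, Benjamini-Hochberg adjusted values lay between 0.943 and 1. These replicates are pools, and nothing in the labels says which females they share, so the p-values measure the spread between pools.

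Along Msi2 the methylation was not uniform. The first 32.6 kb, from the outermost start to the end of the short coding transcript Msi2-202, were unmethylated in all groups, at 4.85% ± 1.96 in IFC and 3.47% ± 1.89 in SO, against 4.01% ± 0.835 in SOA and 7.49% ± 3.55 in IV. Methylation then rose within a few kb. In 2-kb windows of calls pooled per group, the window 31.5 kb from the start had 11.3, 4.09, 2.02 and 6.73% in IFC, SO, SOA and IV, and the window at 35.5 kb had 64.3, 64.4, 91.8 and 89.1%. The edge thus lay within the same few kb in all groups, and the adult groups rose further beyond it. From there to 128 kb, the end of the coding transcript Msi2-206, methylation was 62.2% ± 5.49 in IFC and 67.3% ± 7.79 in SO, against 87.1% ± 2.35 in SOA and 85.7% ± 4.05 in IV. Over the remaining 251 kb it was 45.6% ± 3.57, 50.2% ± 7.37, 80.5% ± 4.24 and 79.0% ± 0.482, so that SO was 30.2 points below SOA here and 19.8 points below it in the middle stretch, and IFC 34.8 and 24.8 points.

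**Figure D2:**
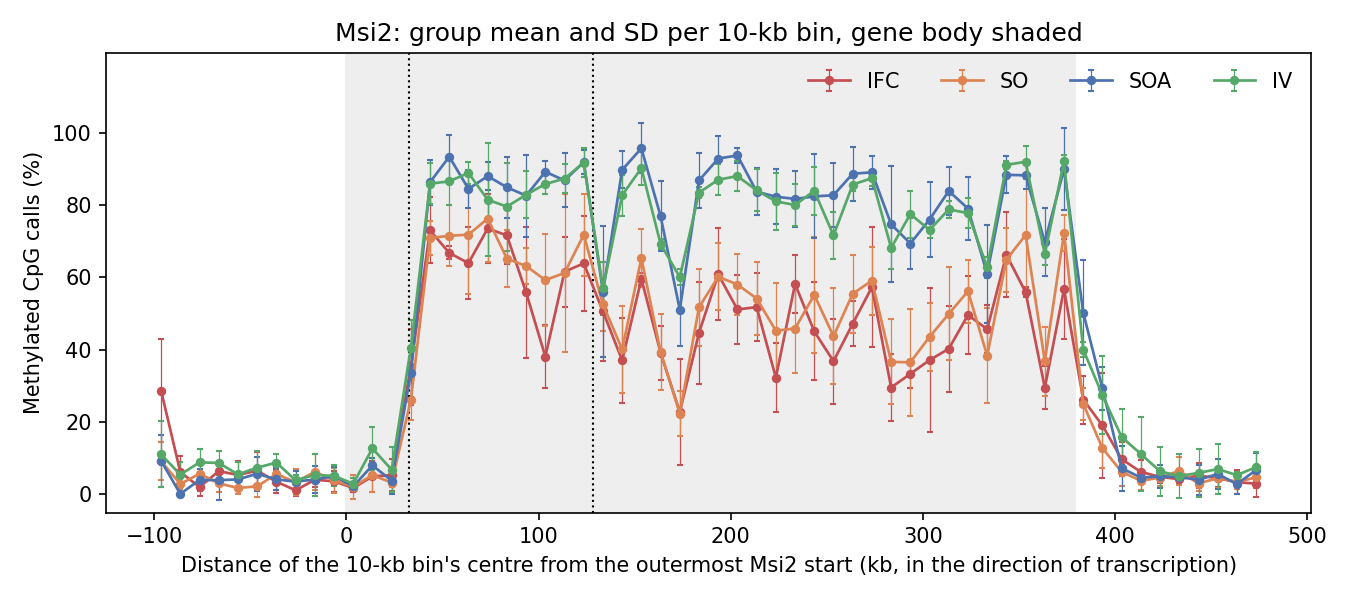
Mean percent of methylated calls and SD of each group in 10-kb bins across Msi2 (shaded) and 100 kb on either side, by distance from the outermost start in kb. Dotted lines mark the ends of Msi2-202 at 32.6 kb and Msi2-206 at 128 kb, between and beyond which IFC and SO mostly run below SOA and IV, while all groups are low before the first line and, past the bins that adjoin the 3′ end, outside the gene.

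Of the 38 Msi2 bins, 26 were at least 20 points lower in SO than in SOA, 29 in IFC than in SOA, 28 in IFC than in IV and 25 in SO than in IV, and none was that much higher. Of all bins in the genome, 1.23% were at least 20 points lower and 1.67% higher in SO than in SOA, 2.7% lower and 2.72% higher in IFC than in SOA, 2.45% lower and 2.53% higher in IFC than in IV, and 0.98% lower and 1.41% higher in SO than in IV. In 19 bins every IFC and SO library was below every SOA and IV library, which held for 0.317% of 196830 bins genome-wide. These counts restate the choice of the gene at finer scale. The widest gap between the prepubertal and the adult group means, 47.6 points, was in the bin centred 143.5 kb from the start (chr11:88570001-88580000), where the libraries read 42.5, 19.4, 44.4 and 41.9% in IFC, 45.7, 25.7, 57.3, 36.3 and 35.4% in SO, 93.6, 86.8, 94.4 and 84.0% in SOA and 89.2, 79.5 and 79.5% in IV. The adjoining bin at 133.5 kb (chr11:88580001-88590000) was alike in all groups, at 50.6% ± 13.7, 52.5% ± 7.24, 56.0% ± 18.1 and 56.9% ± 7.28 in IFC, SO, SOA and IV. Within that bin methylation dipped in all groups, with 20, 8, 13.8 and 11.0% at 135.5 kb in the same order of groups.

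Counted over bins, methylation in SOA was above 80% in 25 of 38 Msi2 bins and in IV in 21, whereas neither IFC nor SO had any bin above 80%. In each of the 4 groups 3 bins were below 20%, those of the unmethylated 5′ part. The highest bin mean was 73.5% in IFC and 76.2% in SO, against 95.7% in SOA and 92.1% in IV. IFC and SO pools were thus at intermediate levels over most of the gene. For Rbm47 the bins above 80% numbered 10 of 15 in SOA and 9 in IV, again with none in IFC and SO. These counts too restate the choice of the genes, and the share of all bins above 80% in each group was not counted. Over the genome, in bins above 80% in the other groups, IFC libraries averaged 89.7 to 92.2% and SO libraries 90.3 to 92.9%.

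Rbm47 showed a less regular profile. The 2-kb window at the outermost start was at or under 11.5% in every group, of 26 to 67 calls a group. From there to the internal starts at 21.2 kb, methylation was 29.1% ± 4.61 in IFC and 38.1% ± 12.4 in SO, against 54.7% ± 4.80 in SOA and 57.0% ± 1.64 in IV. Between 21.2 and 74.9 kb IFC and SO were farthest below SOA, with 29.0% ± 4.10, 40.1% ± 15.7, 87.9% ± 4.50 and 79.6% ± 1.23. The stretch from 74.9 to 92.1 kb gave 27.8% ± 8.35, 33.2% ± 18.4, 74.3% ± 9.32 and 76.5% ± 3.94. Levels of the adult groups were lower from 92.1 to 119 kb, at 34.3% ± 3.64, 34.0% ± 8.87, 59.6% ± 9.74 and 58.3% ± 3.13. In the last 38.0 kb all groups were higher, at 70.8% ± 5.66, 67.5% ± 17.7, 94.2% ± 3.65 and 91.8% ± 2.13, and IFC and SO were 23.4 and 26.7 points below SOA, compared with 58.8 and 47.8 points between 21.2 and 74.9 kb.

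**Figure D3:**
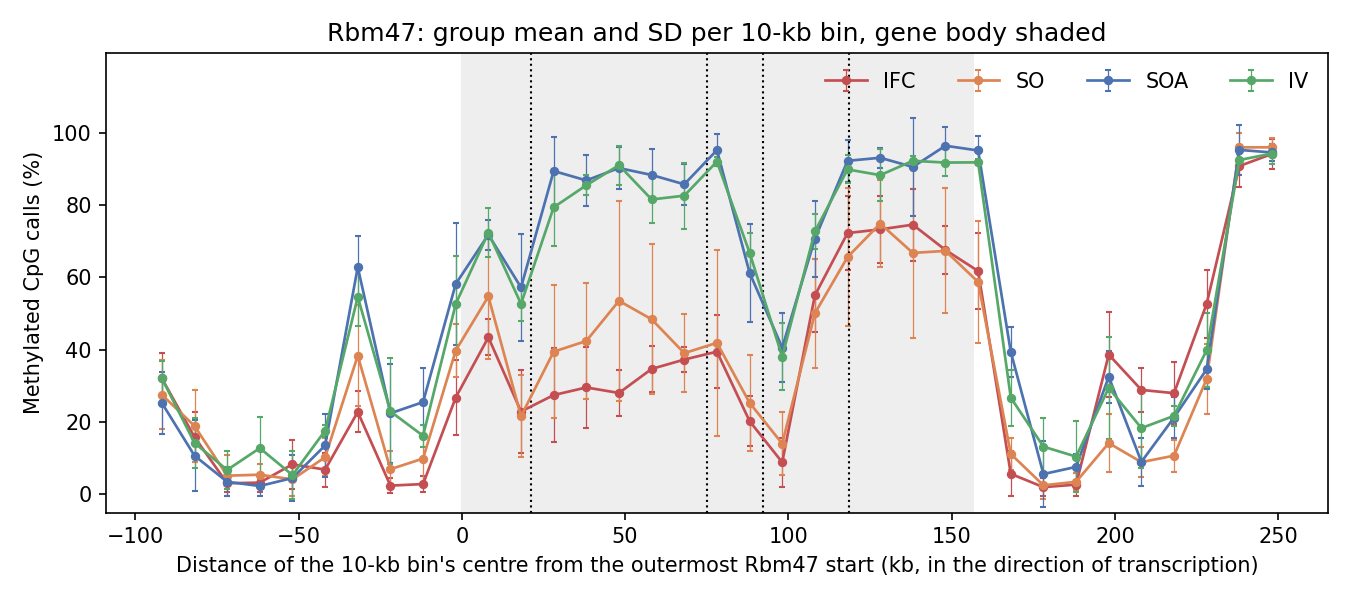
Mean percent of methylated calls and SD of each group in 10-kb bins across Rbm47 (shaded) and 100 kb on either side, by distance from the outermost start in kb. Dotted lines mark annotated internal starts at 21.2, 74.9, 92.1 and 119 kb, and the wide SD of SO reflects pools that ranged from 30.9 to 64.4% over the gene.

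The Rbm47 bins repeated the gene body difference, with 13 of 15 at least 20 points lower in SO than in SOA, 11 in IFC than in SOA, 11 in IFC than in IV and 13 in SO than in IV. All IFC and SO libraries were below all SOA and IV libraries in 7 bins. The shares over all bins given for Msi2 (1.23, 2.7, 2.45 and 0.98% lower in the same order, and 0.317% without overlap) apply here too, and these counts again restate the choice of the gene. The 250 bases before another internal RefSeq start, which hold the annotated starts of Rbm47-201 and Rbm47-206 (chr5:66150979-66151228), had 82.6% of 23 calls methylated in SOA and 66.7% of 33 in IV, against 12% of 25 in IFC and 5.88% of 34 in SO. In single libraries, 5 of 5 calls in SOA1, 7 of 8 in SOA2, 7 of 10 in SOA4, 9 of 11 in IV1 and 13 of 16 in IV2 were methylated, whereas IV3 had 0 of 6. None of the IFC and SO libraries exceeded 3 of 14 calls, the value of IFC4. This internal promoter was thus methylated in most adult pools with calls and low in the prepubertal pools with calls, at a depth of at most 16 calls a library. It lies inside the gene body whose values chose Rbm47, so it too restates that choice. How many other promoters separate the groups in this way was not counted. IFC3, SO2 and SOA3 had no call there, SO1 had 1 and IFC1 had 2. The window before a further internal RefSeq start (chr5:66098180-66098429) did not repeat this. It had 4 of 5 calls methylated in IFC, 1 of 6 in SO, 3 of 3 in SOA and 2 of 2 in IV. The bins named next lie outside the gene and were picked after their values were seen. The bin centred 31.9 kb before the outermost start had 22.8% ± 5.65 in IFC and 38.4% ± 13.9 in SO, against 62.8% ± 8.49 in SOA and 54.6% ± 8.05 in IV. The bin chr5:66000001-66010000 beyond the 3′ end, which overlaps the gene 9130230L23Rik, had 5.71% ± 6.26, 11.2% ± 4.29, 39.4% ± 6.82 and 26.8% ± 7.69 in the same order.

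In Msi2 and Rbm47 the IFC and SO means were below the SOA and IV means in introns, exons and repeats, but the libraries overlapped in some classes. In the introns of Msi2, methylation was 46.5% ± 4.09 in IFC and 49.5% ± 6.87 in SO, against 74.2% ± 3.95 in SOA and 73.4% ± 0.577 in IV, and in repeats it was 43.0% ± 3.96, 50.1% ± 7.20, 74.5% ± 5.67 and 73.6% ± 1.61. Msi2 exons, with fewer calls, gave 39.1% ± 4.45, 49.6% ± 11.9, 61.1% ± 15.3 and 67.4% ± 4.57. In Rbm47 the exons stood at 45.8% ± 16.0, 45.7% ± 17.0, 89.3% ± 8.05 and 80.8% ± 7.57 and the introns at 40.0% ± 4.19, 46.2% ± 13.7, 75.6% ± 4.98 and 75.2% ± 0.550. In Rbm47 repeats SO and SOA overlapped, with 37.2 to 67.9% in SO and 59.2 to 78.9% in SOA. In Msi2 exons IFC (36.4 to 45.8%) and SO (36.6 to 65.0%) both overlapped SOA (38.7 to 73.2%), and SO also overlapped IV (62.2 to 71%). Calls on both DNA strands gave similar values, for example 45.6 and 47.5% in IFC and 75.8 and 73.8% in SOA on the forward and reverse strands of Msi2.

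Intermediate levels may lie within single CpGs or between them. Among Msi2 CpGs with exactly 4 calls in a group, pooled over its libraries, 73.7% of 266 in IFC and 66.9% of 643 in SO had both methylated and unmethylated calls, compared with 37.9% of 433 in SOA and 36.0% of 559 in IV. All 4 calls were methylated at 11.3% of these CpGs in IFC and 14.8% in SO, against 51.7% in SOA and 52.8% in IV. None was methylated at 15.0, 18.4, 10.4 and 11.3%. In Rbm47 mixed CpGs made up 65.0% of 80 in IFC and 63.9% of 227 in SO, against 32.1% of 156 in SOA and 37.1% of 167 in IV, and fully methylated ones 6.25, 17.6, 57.1 and 57.5%. No call was methylated at 28.8, 18.5, 10.9 and 5.39% of these Rbm47 CpGs in the same order. Single CpGs of IFC and SO with 4 calls were thus mostly neither fully methylated nor fully unmethylated. For Msi2 and Rbm47 these are the calls that chose the genes. The gap between the groups in these shares thus largely restates that choice, and the shares over all CpGs of the genome were not counted. The 4 calls could come from different pools. In Msi1 between 87.9 and 91.4% of such CpGs had no methylated call in any group, and none had 4.

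**Figure D4:**
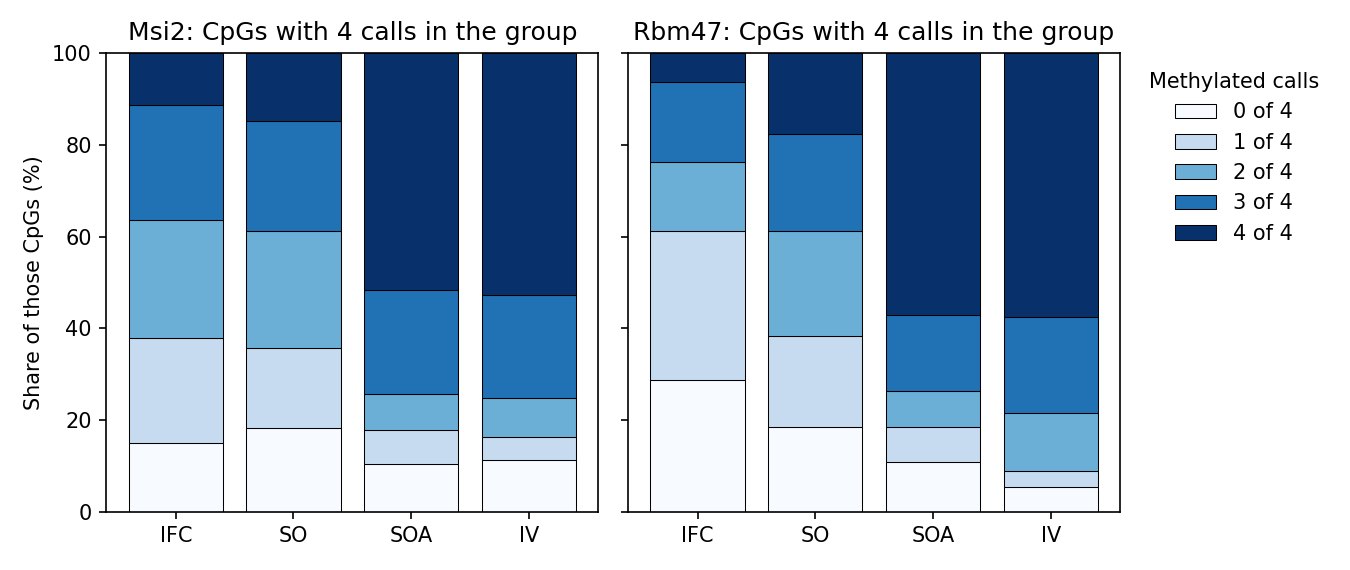
Share of CpGs by the number of methylated calls, from 0 to 4, among CpGs of Msi2 (left) and Rbm47 (right) that had exactly 4 calls in the group. The share with all 4 calls methylated is 6.25 to 17.6% in IFC and SO and 51.7 to 57.5% in SOA and IV, from the calls that chose the genes.

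Bins were then tested within each side of the choice, in IFC vs SO and SOA vs IV, where the choice favours small differences. The test used a logistic model of the calls (likelihood-ratio test, Benjamini-Hochberg adjusted over all bins of the genome). A difference of at least 20 points was also required. Between IFC and SO, 1 of 38 Msi2 bins and 1 of 15 Rbm47 bins were called, both lower in IFC, where the background was 0.771% of bins lower and 0.406% higher in IFC. At an adjusted p under 0.05 without the limit there were 4 and 2 bins, beside 3.76% of all bins, and at an unadjusted p under 0.05 there were 13 of 38 and 7 of 15, beside 15.8%. IFC had the lower mean in 28 of 38 Msi2 bins and 10 of 15 Rbm47 bins. The median difference was -3.96 and -2.44 points, beside 0.309 over all bins. Bins of a gene share the same pools, so these counts are not separate observations. The Msi2 bin (chr11:88610001-88620000) had 28.1, 48.0, 41.8 and 34.6% in IFC and 52.3, 62.9, 75, 41.7 and 64.4% in SO, a difference of 21.1 points (adjusted p = 3.96e-05), with 1 SO pool within the IFC range. The Rbm47 bin (chr5:66120001-66130000) had 19, 29.2, 34.1 and 30% in IFC and 69.0, 76.7, 72.6, 35.8 and 13.5% in SO, a difference of 25.5 points (adjusted p = 0.00105), with SO5 below every IFC pool. This test does not model the spread between pools, and neither bin was called by a quasi-binomial F test, edgeR's quasi-likelihood test or limma. Leaving out IFC1 or SO3 ended both calls, leaving out IFC4 ended that in Msi2 and leaving out SO2 that in Rbm47, whereas without IFC3 Msi2 had 2 called bins.

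No bin of Msi2, Rbm47 or Msi1 was called between SOA and IV by the likelihood-ratio test, against a background of 0.275% lower and 0.194% higher in SOA. The quasi-binomial F test, edgeR and limma called 0 of 217397 bins in this contrast, so they say nothing about these genes. At an unadjusted likelihood-ratio p under 0.05 there were 6 of 38 bins in Msi2, 1 of 15 in Rbm47 and 1 of 3 in Msi1, where 20.3% of all bins were, and at an adjusted p under 0.05 there was 1 bin, in Msi2, where 5.21% of all bins were. The 3 Msi1 bins were also without a call in IFC vs SO, in SO vs SOA, where 0.898% of bins were lower and 1.17% higher in SO, and in IFC vs SOA, where 2.13% were lower and 1.87% higher in IFC. Of these 3 bins, 0, 1 and 0 had an unadjusted p under 0.05 in the respective contrasts, beside 15.8, 20 and 22.1% of all bins. EdgeR and limma called none of the 3, where they called 0.172 and 0.0229% of all bins in IFC vs SO, 0.564 and 0.199% in SO vs SOA and 1.41 and 0.973% in IFC vs SOA, so 3 bins without a call say little. The group means of these bins lay between 2.39 and 6.70% throughout.

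The surroundings differed between the genes. Msi2 stood between unmethylated stretches: the 100-kb flanks together had 7.15% ± 1.09 in IFC and 6.05% ± 1.28 in SO, against 7.02% ± 1.08 in SOA and 9.41% ± 4.16 in IV, and IFC was 1.10 points above SO (exact permutation p = 0.238) and SOA 2.39 below IV (exact p = 0.343). Without IV1, the highest IV library at 14.2%, SOA minus IV was 0.0140 points. Methylation ran on past the annotated 3′ end in the next bin (chr11:88330001-88340000), at 26.2% ± 6.65 in IFC and 25% ± 4.52 in SO, against 50.2% ± 14.5 in SOA and 40.0% ± 2.12 in IV. The nearest protein-coding neighbours were Ccdc182, 44.1 kb downstream and at 0 to 5.90% in the group means, and Akap1, which encodes a mitochondrial anchor protein for protein kinase A, 112 kb upstream and at 75.1 to 82.0%. Neither showed the gap of Msi2.

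Flanks of Rbm47 were partly methylated, at 26.2% ± 0.864 in IFC and 24.1% ± 3.33 in SO, against 32.2% ± 1.72 in SOA and 32.3% ± 4.76 in IV. IFC was 2.14 points above SO there (exact permutation p = 0.286), and the difference of SOA minus IV was -0.0955 points (exact p = 0.971), which became 2.52 without IV1. The upstream flank carried 12.4% ± 1.81 in IFC and 16.8% ± 2.94 in SO, against 24.6% ± 4.73 in SOA and 23.6% ± 3.35 in IV. The downstream flank, in the same order of groups, had 38.8% ± 2.15, 30.5% ± 4.43, 39.6% ± 0.810 and 40.1% ± 7.41, so that IFC was above SO in every library on this side (36.3 to 41.4% and 23.5 to 35.5%) and had the lower mean upstream. The flanks were tested only together. The sides are given without a test, and how often flanks of other genes separate IFC from SO was not counted. In the bin chr5:65970001-65980000 of this side, chosen after its values were seen, IFC had 43.2, 36.7, 51.2 and 23.6% and SO 8.89, 12.8, 20.5, 24.0 and 4.82%, with SO4 just above IFC4. The nearest downstream gene, 9130230L23Rik, 12.3 kb away and overlapping that bin, had 3.02% ± 2.20 in IFC and 4.19% ± 0.859 in SO, against 10.4% ± 3.76 in SOA and 12.8% ± 8.91 in IV, and Nsun7, which encodes a putative RNA methyltransferase 86.8 kb upstream, had 28.6% ± 3.16, 21.8% ± 2.96, 21% ± 4.38 and 22.7% ± 3.32.

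Msi1 was an unmethylated gene with partly methylated surroundings. Its flanks had 51.3% ± 6.67 in IFC and 51.2% ± 1.99 in SO, against 49.1% ± 4.41 in SOA and 49.2% ± 0.282 in IV, given here without a test. In the upstream flank, the SO libraries had a mean of 34.9% (33.6 to 35.6%) and the SOA libraries of 30.05% (28.0 to 31.2%). IFC (26.5 to 41.3%) and IV (29.0 to 34.9%) overlapped SOA there. How often flanks of other genes separate SO from SOA was not counted. The bin 74.6 kb before the gene, chosen after its values were seen, was at 74.0% ± 14.7 in IFC and 71.8% ± 11.6 in SO, against 51.2% ± 10.6 in SOA and 59.7% ± 0.925 in IV, but SO5 at 53.7% and IFC4 at 54.5% lay below SOA4 at 63.2%. The downstream neighbour Pla2g1b, a secreted phospholipase gene 10.6 kb away, was at 1.95 to 5.25%, and the upstream neighbour Cox6a1, a cytochrome c oxidase subunit gene, had as few as 2 calls in a library.

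**Figure D5:**
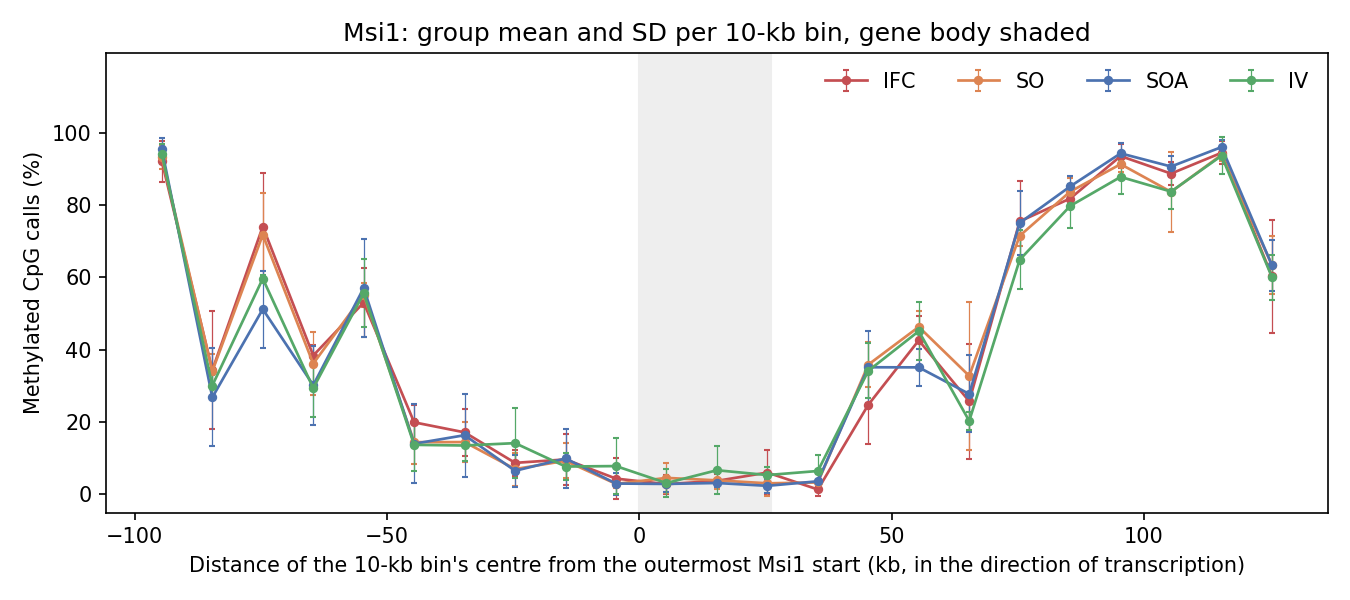
Mean percent of methylated calls and SD of each group in 10-kb bins across Msi1 (shaded) and 100 kb on either side, by distance from the outermost start in kb. The 3 bins of the gene lie between 2.39 and 6.70% in every group mean, and the bin 74.6 kb upstream is at 74.0% in IFC and 51.2% in SOA.

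Some pools deviated from their group mean in the same direction in both genes, and others did not. SO3 exceeded its group mean by 10.8 points at Msi2 and 18.4 at Rbm47, SO4 was 7.65 and 10.0 points below it and SO5 2.90 and 15.2 points below. SOA1 was 5.93 and 6.99 points above its mean and SOA3 2.38 and 6.62 below. SO1 was 0.737 points below its mean at Msi2 and 7.65 above at Rbm47, IFC4 was 4.93 below and 3.53 above, and IFC3 deviated by 1.76 and -0.964 points. SO3 and SO4 were both deep libraries, with 38.9 and 41.1% of all calls methylated. Without SO3, 29 Msi2 and 15 Rbm47 bins were at least 20 points lower in SO than in SOA, and 28 and 14 lower than in IV. Over the genome the shares of bins that much lower without SO3 were 1.53 and 1.27%, against 1.23 and 0.98% with it. Without IV1, 27 and 12 bins were that much lower in SO than in IV and 28 and 11 in IFC, beside 0.959 and 2.32% of all bins.

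Among 14680 gene bodies with at least 20 calls in every library, 8 had IFC and SO means that were both at least 20 points below the means of both adult groups, which is 0.0545%, and 32 were as far above. Ordered by the smaller of the distances, Rbm47 came at position 2 of these 8, with 29.9 points, and Msi2 at position 6, with 23.7. The last gene inside the limit had 21.2 points and the first outside it 19.8. Gene bodies whose level followed Msi2 most closely over the 16 libraries, among 97 with at least 100 calls in each and group means spanning at least 20 points, were Rbm47 (Pearson r = 0.962), Ddx60 (0.949), Ttll9 (0.936), Fer1l6 (0.931) and Rftn2 (0.926). For Rbm47 they were Msi2 (0.962), Rftn2 (0.935), Ddx60 (0.931), Ttll9 (0.928) and Xdh (0.925). These values share the same 16 libraries, which fall into the prepubertal and the adult level, so they mainly restate that step and no p is given. Ddx60, which encodes a helicase of the antiviral response, had 26.5% ± 2.60 in IFC and 37.2% ± 12.2 in SO, against 69.5% ± 3.72 in SOA and 65.9% ± 1.93 in IV. Xdh, which encodes xanthine dehydrogenase, had 47.9% ± 3.7, 64.6% ± 7.19, 87.0% ± 3.09 and 84.5% ± 0.414.

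Other RNA-binding genes were examined for comparison. A list of 61, made up of 9 relatives of the Musashi proteins, 6 that are relatives or the editing partner of Rbm47 and 46 other regulators of splicing, stability and translation, was tested over whole gene bodies with the same likelihood-ratio test, adjusted over all gene bodies with at least 20 calls. None of 56 tested was called between IFC and SO (background 0.271% lower and 0.407% higher in IFC), none of 53 between SO and SOA (0.55% lower and 0.422% higher in SO) and none of 54 between SOA and IV (0.0586% lower and 0.541% higher in SOA), each by the likelihood-ratio test. EdgeR and limma also called none, but over all gene bodies they called only 23 and 9 in IFC vs SO, 57 and 48 in SO vs SOA and 0 in SOA vs IV, where they could not bear on the list. The limit of 20 points was what ended the calls: at an adjusted p under 0.05 without it there were 10, 18 and 19 genes of the list, beside 23.3, 29 and 30.1% of all gene bodies, and at an unadjusted p under 0.05 there were 17, 22 and 25 genes, beside 34.3, 38.5 and 40.5%. The list's median difference was 0.547 points in IFC vs SO, 0.104 in SO vs SOA and 0.352 in SOA vs IV, beside 0.574, -0.0773 and 0.999 over all gene bodies tested.

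Between IFC and SOA, 1 of 53 was called, Nova1, a splicing regulator of neurons, and it was higher in IFC, where 0.902% of gene bodies were lower and 0.982% higher. It had 62.5% ± 0.733 in IFC and 38.2% ± 2.26 in SOA (adjusted p = 6.20e-32 by the likelihood-ratio test), with 56.9% ± 2.35 in SO and 44.7% ± 1.07 in IV, the opposite direction to Msi2 and Rbm47. Without IFC4 there were 2 called genes and without SOA3 there were 3. The closest relatives of the members, named after their values were seen, differed in level from gene to gene. A1cf, another APOBEC1 cofactor, had group means of 3.44 to 7.02%, Apobec1 itself 4.19 to 8.10% and Rbm46 10.7 to 14.9%, whereas Syncrip had 57.7 to 67.7% and Hnrnpr 79.3 to 87.0%. Of the Musashi relatives, Dazap1 had 67.2 to 74.4%, Hnrnpd 44.1 to 60.9% and Tardbp 44.5 to 53.9%.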

How the data were processed

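Methylation was measured by PBAT in 16 pools of mouse MII oocytes. Per the labels, the authors trimmed reads with Trim Galore 0.4.4 and cutadapt 1.9.1 and mapped them to GRCm38 with Bismark 0.19.0. The files deposited by the authors hold, for every covered cytosine in CpG context, raw counts of methylated and unmethylated calls. A percent column deposited beside them equals their ratio within 0.01 points and was only checked.

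Counts were summed over gene bodies, 100-kb flanks and 10-kb bins (GENCODE M21 genes, numpy 2.4.6, pandas 2.3.3, Python 3.11.15), and a level is methylated calls divided by all calls in a library. Gene bodies and flanks were compared with a two-sided exact permutation test of group means (scipy 1.17.1). Bins and the gene bodies of the RNA-binding list were compared with a likelihood-ratio test of a logistic model over all bins with at least 5 calls, or all protein-coding gene bodies with at least 20 calls, in every library, Benjamini-Hochberg adjusted. A call needed an adjusted p under 0.05 and 20 points. The scripts were tested on simulated data. Alternatives were a quasi-binomial F test, edgeR 4.0.16, limma 3.58.1 (R 4.3.3), a replicate block, other limits, thinning, depth classes and leaving out each library. The bin counts without SO3 or IV1 were added after seeing the data.

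The members and lists were chosen with earlier results of these data known. Genes named are the members, their nearest protein-coding neighbours, called genes of the list and the 5 genes most correlated with Msi2 and with Rbm47. Relatives of the members and list genes past a limit of 10 points were named in addition, after their values were seen. Sequences come from the GRCm38 reference, with RefSeq promoter starts.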

Additional observations from a re-analysis of the deposited data

Results flagged for a closer look

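Of 18 groups of 4 or 5 libraries examined for a library far from the others, 2 held one, where chance gives about 1 in 20. SOA1 had the highest Msi2 gene body methylation of the SOA libraries, 79.8%, with the other SOA libraries between 71.5 and 72.1%. IFC4 had the lowest methylation of the Msi2 flanks, 5.52%, with the other IFC libraries between 7.54 and 7.77%.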

How the results depend on the processing

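Of 347 alternative values, 304 kept their direction and their side of the threshold, 24 counts moved and 19 differences changed sign, all of the latter small differences without a call. The cause was not tested. In the deep libraries alone the Msi2 gene body difference SOA vs IV was -1.12 points (1 SOA library, SOA4, against 3, so with no test of the group). For Msi1, IFC vs SO became 0.633 when thinned to the shallowest library, 0.365 as the mean over bins and 0.0637 in the shallow libraries, where SO vs SOA was -0.0947 and IFC vs SOA -0.0310. The Rbm47 flanks in SOA vs IV became 0.0379 on reference CpGs, 0.890 when thinned and 0.631 with the replicate block.

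Leaving out 1 library at a time gave, for the gene body differences in points, -5.15 to -0.526 (Msi2, IFC vs SO), -1.27 to 1.495 (Msi2, SOA vs IV), -8.86 to -0.476 (Rbm47, IFC vs SO), -1.14 to 3.40 (Rbm47, SOA vs IV), -0.986 to 0.234 (Msi1, IFC vs SO), -0.176 to 0.583 (Msi1, IFC vs SOA), 0.0319 to 1.25 (Msi1, SO vs SOA) and -3.14 to 1.06 (Msi1, SOA vs IV). Flank differences ran from 0.781 to 1.65 (Msi2) and 0.903 to 3.02 (Rbm47) in IFC vs SO, and from -3.64 to 0.0140 (Msi2) and -2.13 to 2.52 (Rbm47) in SOA vs IV. The values nearest 0 in IFC vs SO, -0.526 at Msi2 and -0.476 at Rbm47, were those without SO3. The signs turned without SOA1 (Msi2 0.703 to -1.27, Rbm47 1.19 to -1.14), without SO1 or SO4 (Msi1, IFC vs SO, 0.0358 and 0.234), without IFC4 or SOA4 (Msi1, IFC vs SOA, -0.176 and -0.0310), without IV1 (Msi1 1.06, Msi2 flanks 0.0140, Rbm47 flanks 2.52) and without SOA4 (Rbm47 flanks 0.631).

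The 1 called bin each of Msi2 and Rbm47 in IFC vs SO became 0 with the quasi-binomial F test, edgeR, limma, a limit of 30 points and bins shifted by 5 kb, and that of Rbm47 also when thinned. Without 1 library these counts were 0 to 2 in Msi2 and 0 to 1 in Rbm47. Over all bins in IFC vs SO, the likelihood-ratio test called 2472, edgeR 362, limma 48 and the quasi-binomial test 1. The RNA-binding list had, at a limit of 10 points, 4 called genes between IFC and SO, 3 between SO and SOA, 2 between SOA and IV and 3 between IFC and SOA, beside 6.53, 7.01, 5.88 and 10.5% of all gene bodies at that limit, and without 1 library 1 to 3 in the last contrast.

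No pairing of samples by equal replicate numbers was shown: the correlations of their deviations over 15 pairs lay between -0.0123 and 0.0571. Replicate 4 had the highest value in IFC vs SO (0.0571), SO vs SOA (0.0269) and IFC vs SOA (0.0275). Counting noise at this depth lowers such correlations, so they cannot exclude pairing. The replicate block, a fit on the number alone, changed no call, and reversed only the Rbm47 flanks in SOA vs IV given above. It left 1 called bin in Msi2 and 1 in Rbm47.

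The likelihood-ratio test does not model the spread between pools, which limits the bin and list calls. The exact tests cannot go below 0.0286 for 4 against 3 libraries. Depth differs with the groups, since all IFC libraries are shallow and all IV libraries deep, so IFC and IV share no depth class.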

Other observations

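Some RNA-binding genes of the list passed the adjusted likelihood-ratio test at a limit of 10 points but not of 20, and were named after their values were seen. They were 2 to 4 of 53 to 56 tested in each contrast, while 5.88 to 10.5% of all gene bodies passed at this limit, so these counts do not set the list apart. In IFC vs SO these were Hnrnpd, 15.3 points lower in IFC, and Elavl1, Ptbp3 and Esrp2, 11.4, 12.8 and 13.8 points higher. Hnrnpd encodes an RNA-binding protein that speeds the decay of mRNAs with AU-rich elements, and Elavl1 one that stabilises them. In SO vs SOA they were Elavl1, 12.9 points lower in SO, and Khdrbs3 and Nova1, 15.9 and 18.7 points higher. The test does not model the spread between pools, which was wide for Elavl1, with an SD of 17.0 in SO and 14.1 in SOA. The SD was 4.53 in both groups for Khdrbs3, and 2.35 in SO and 2.26 in SOA for Nova1. In SOA vs IV the genes past this limit were Elavl3 and Qk, 10.6 and 15.2 points higher in SOA. Their SDs were 15.1 and 10.8 in SOA, against 2.97 and 1.97 in IV. In IFC vs SOA, beside Nova1, they were Khdrbs3, with 57.7% ± 3.75 in IFC (n = 4) and 38.3% ± 4.53 in SOA (n = 4), and Dazl, which encodes an RNA-binding protein of germ cells, 10.3 points higher in IFC. The contrasts with SOA share its libraries.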
